A study of Mus musculus with 89 samples.

Results

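Enteroendocrine cells are scattered single cells of the gut lining that sense the contents of the lumen and release peptide hormones into blood and neighbouring tissue. The 8 peptide hormone genes described here are a listed set out of 23379 genes measured in single cells and 27538 genes measured in small clumps of cells from the jejunum, the middle stretch of the mouse small intestine. The set is given by name. Gip encodes the incretin GIP and Gcg encodes proglucagon, which gut cells cut into GLP-1 and GLP-2. Sct encodes secretin, which calls for bicarbonate from the pancreas, and Cck encodes cholecystokinin, which empties the gallbladder. Nts (neurotensin) and Pyy (peptide YY) slow transit and curb appetite, Ghrl encodes the hunger hormone ghrelin, and Sst encodes somatostatin, which inhibits the release of other hormones. These cells arise from crypt progenitors and move up the villus with the enterocytes around them, and a single cell can make several hormones at once.

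All samples came from male C57BL/6 mice on regular chow with no other genetic or drug treatment named, aged 3 months, except some single-cell plates of mouse 2 that were labelled 4 months. Clumps were left intact by mild EDTA dissociation and sorted by DNA content: 27 plates of pairs (4n) from 5 mice, 14 plates of larger clumps (above 4n) from 3 of these mice, and 4 plates of clumps above 2n from mouse 6. A further 44 plates held single cells of 4 mice, numbered separately from the clump mice and sorted by gates on Epcam (an epithelial surface protein), CD24 (a surface protein high on endocrine and tuft cells) and CD45 (a white blood cell protein), while 3 plates of mouse 4 were labelled CD54Epcam and others named no gate. Every well was read by MARS-seq, which copies each mRNA from its 3′ end with a unique molecular identifier (UMI), so that a UMI stands for 1 captured molecule and levels need no correction for gene length. After filtering, 5199 cells of 810, 1793, 1536 and 1060 per mouse and 5883 clumps of mice 1 to 5 were analysed. Well barcodes recur on every plate by design, and no 2 wells of at least 200 UMIs held the same counts.

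The genes lie apart in the genome (GRCm38). Gip lies at chr11:96024545-96030831 on the plus strand. The other 7 lie on the minus strand, with Gcg at chr2:62474530-62483650, Cck at chr9:121489824-121495694, Ghrl at chr6:113716119-113719880, Nts at chr10:102481756-102490486, Pyy at chr11:102106676-102107832, Sct at chr7:141278330-141279133 and Sst at chr16:23889573-23890958. Annotated transcripts have up to 2 exons in Sst, 4 in Cck, Nts, Pyy and Sct, 5 in Ghrl and 6 in Gcg and Gip. Ghrl overlaps Gm26982 and Gm44033, which lie on the opposite strand. According to the methods the authors' counting was set to the strand of the library.

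The promoters of 4 genes are shown because these form the pairs most often found together in 1 cell below, Gip with Sct and Ghrl with Sst. RefSeq promoters (GRCm38.p6) were found for 8 of 8 genes, and the 250 bases before each start are given 5′ to 3′ on the strand of the gene. The windows are chr11:96024295-96024544 on the plus strand for Gip, and on the minus strand chr7:141279134-141279383 for Sct, chr6:113719912-113720161 for Ghrl (the farthest upstream of its 4 starts) and chr16:23890845-23891094 for Sst. Capitals mark 4 motifs searched on both strands: the cyclic AMP response element TGACGTCA, the TATA box TATAAA, the E box CAGCTG and the GATA site AGATAA.
Gip promoter: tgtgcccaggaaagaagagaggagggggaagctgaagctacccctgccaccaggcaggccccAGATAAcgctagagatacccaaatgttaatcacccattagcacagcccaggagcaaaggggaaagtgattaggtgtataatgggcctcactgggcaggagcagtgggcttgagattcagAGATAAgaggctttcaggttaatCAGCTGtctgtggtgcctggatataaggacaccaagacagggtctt
Sct promoter: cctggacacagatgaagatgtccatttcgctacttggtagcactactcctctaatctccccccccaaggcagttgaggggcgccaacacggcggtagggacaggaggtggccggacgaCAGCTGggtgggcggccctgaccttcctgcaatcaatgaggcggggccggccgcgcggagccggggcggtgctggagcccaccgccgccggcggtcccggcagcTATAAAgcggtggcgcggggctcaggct
Ghrl promoter: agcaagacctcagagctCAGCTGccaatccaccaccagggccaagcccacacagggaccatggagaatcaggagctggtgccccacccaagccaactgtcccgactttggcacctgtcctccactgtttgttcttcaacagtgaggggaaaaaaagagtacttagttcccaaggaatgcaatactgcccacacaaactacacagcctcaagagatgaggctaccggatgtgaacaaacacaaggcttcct
Sst promoter: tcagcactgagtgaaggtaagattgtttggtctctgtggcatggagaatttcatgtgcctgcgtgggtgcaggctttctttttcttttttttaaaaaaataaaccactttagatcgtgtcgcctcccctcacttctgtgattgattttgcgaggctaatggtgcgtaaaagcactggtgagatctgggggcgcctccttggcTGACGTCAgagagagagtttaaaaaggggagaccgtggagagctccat

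Only the Sst window held TGACGTCA among the 8 genes, starting 48 bases before the start of transcription, and 1.546% of all 32851 promoter windows of this length held it. Sct had a TATA box 28 bases and an E box 132 bases before its start. Gip had an E box at 46 bases and GATA sites at 188 and 69 bases, and Ghrl an E box at 233 bases. Of all windows, 12.37% held the TATA box, 13% the E box and 9.988% the GATA site. Gip and Sct both held the E box, as did Ghrl and Nts, and Ghrl and Sst shared none of the 4 motifs. A match describes these letters only and is not a site of binding.

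The first question was which of the 250 enteroendocrine-like cells among the 5199 cells carried each hormone. The class was a cluster built without the 8 genes. Its 16 measured enteroendocrine markers summed to 20221 CPM (UMIs of a gene in every 1000000 UMIs of the group), against 53.3 in all other cells, and 12 of them were among its 50 leading genes. The mice gave 11, 219, 12 and 8 such cells, and 188 of the 219 cells of mouse 2 came from its 5 plates gated on CD24, so totals over cells are largely those of 1 mouse. A cell was said to carry a hormone mRNA when it held at least 10 of its UMIs. Median depth was 1823 UMIs in these cells, 2851 in enterocyte-like, 1991 in goblet-like, 2207 in tuft-like and 848 in immune-like cells. No doublet caller was run. Each well was sorted as 1 cell and cells above 7000 UMIs were left out, but this limit lies far above the median of 1823. Wells with 2 cells may therefore remain, and the shares of hormones carried together were not corrected for them.

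Over all plates of a mouse, Gip was carried by a similar share of cells at this cut, but gates within a mouse differed. Mouse 1 had 3 carriers among 5 cells on EpcamLow_Cd24high plates and 0 among 6 on plates with no gate named. Mouse 2 had 62 of 188 on CD24, 4 of 10 on Epcam and 0 of 21 on unnamed plates. Mouse 3 had 3 of 6 on CD45Epcam and 0 of 6 on onlyEpcam plates. Over all gates, mice 1 to 4 had Gip carriers at 27.3, 30.1, 25 and 25% of enteroendocrine-like cells (mean 26.9% ± 2.44, SD, n = 4 mice). Carriers were packed with it, with a median of 237 UMIs or 15.7% of all UMIs of the cell and up to 34.2%. Only 1 cell of the class held 9 or 10 Gip UMIs, so few cells lay near the cut. The spread was larger at other settings, with 42.1% ± 22.8 at 1 UMI and 22.5% ± 6.52 without the CD24 plates of mouse 2.

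Sct was the hormone with the most carriers. It was carried by 81.8, 51.1, 33.3 and 25% of the cells of mice 1 to 4 (47.8% ± 25.2), 127 cells in all. Its level per carrier was far lower than that of Gip, with a median of 26 UMIs or 1.46% of the cell, and it was graded rather than all or none: 91.2% of the 250 cells held at least 1 UMI, 78.0% at least 3, 50.8% at least 10 and 22.4% at least 30. Intervals within a mouse were wide, for example 52.3 to 94.9% for Sct in the 11 cells of mouse 1 and 7.15 to 59.1% in the 8 cells of mouse 4 (95% Wilson intervals, which cover counting error only).

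Sst and Ghrl were carried by similar numbers of cells. Sst was carried by 9.09, 16.4, 0 and 12.5% of cells in mice 1 to 4 (9.51% ± 7.01), 38 cells in all (3.14% ± 6.28 over mice with cells taken by their sum of markers), with a median of 266 UMIs or 15.4% of the cell. Ghrl was carried by 36.4, 15.5, 0 and 12.5% (16.1% ± 15.1), 39 cells in all, with a median of only 31 UMIs or 1.45% of the cell. Mouse 3 had no carrier of either among 12 cells, where the upper end of the Wilson interval was 24.2%.

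Cck was carried by 36.4, 10.0, 8.33 and 25% of cells (19.9% ± 13.3), 29 cells with a median of 66 UMIs. The remaining 3 hormones were rare and uneven over mice. Nts was carried by 54.5, 4.11, 0 and 0% (14.7% ± 26.7), which is 6 of the 11 cells of mouse 1 and 9 of the 219 of mouse 2. Pyy was carried by 27.3, 3.20, 0 and 0% (7.62% ± 13.2), and Gcg by 0, 2.74, 0 and 12.5% (3.81% ± 5.94), with 10 and 7 carriers in all. For these 3 the SD over mice exceeded the mean, and no order among them held beyond the spread between mice. Shares of cells by mouse for all 8 hormones are shown in the plot of carriers.

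**Figure D1:**
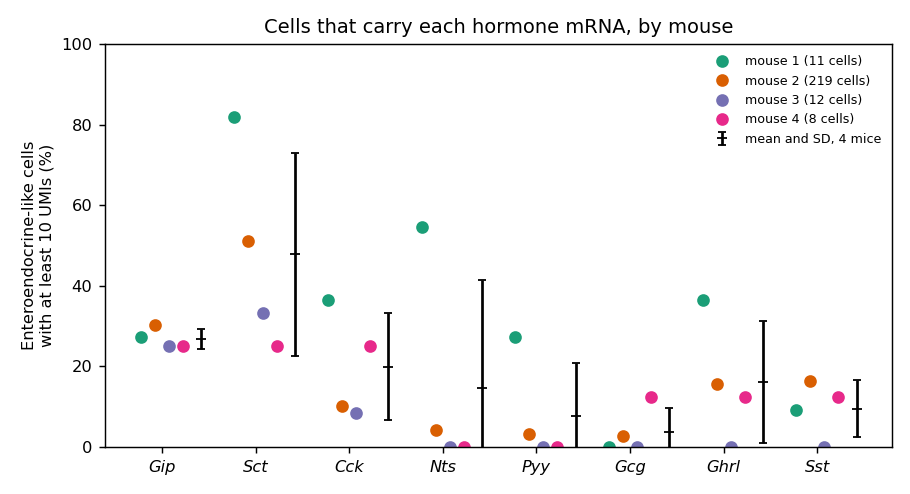
Share of enteroendocrine-like cells (%) with at least 10 UMIs of each hormone mRNA, 1 point per mouse (n = 4) and, in black, the mean and SD over mice. The 4 mice sit between 25 and 30.1% for Gip, whereas Sct ranges from 25 to 81.8%. Over all plates of a mouse, Nts and Pyy are high in mouse 1 only. The plates of mouse 2 with no gate named held 7 Nts and 4 Pyy carriers among 21 cells. Its CD24 plates held 1 and 2 among 188.

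As a level, CPM summed over the class ran from Gip at 40841, 54041, 20421 and 21152 in mice 1 to 4 down to Gcg at 226, 1674, 0 and 1593. Sct stood at 45249, 11354, 6059 and 7257, and Cck at 12433, 4315, 5154 and 13010. Sst stood at 10022, 24202, 0 and 3717, Ghrl at 18989, 3687, 157 and 2567, Nts at 25017, 1849, 0 and 177, and Pyy at 14053, 687, 0 and 531. The means over mice were 34114 ± 16308 for Gip, 17480 ± 18651 for Sct, 9485 ± 10648 for Sst, 8728 ± 4630 for Cck, 6761 ± 12199 for Nts, 6350 ± 8554 for Ghrl, 3818 ± 6830 for Pyy and 873 ± 883 for Gcg. Neighbours in this order differed by less than the larger of their SDs, and only Gip exceeded every other gene in mice 2, 3 and 4.

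Outside the class, single hormone UMIs were common on some plates and carriers were nearly absent. Among the 4949 other cells none carried Gcg, Cck, Ghrl or Pyy, which allows a share of up to 0.0606%, and 1 carried Nts, 1 Sct, 1 Sst and 7 Gip. The class held 93.0 to 98.0% of all UMIs of each hormone. On the 6 plates where enteroendocrine-like cells held 1000 or more Gip UMIs, 64.9% of 897 other cells had at least 1 Gip UMI, but on the 29 plates with no Gip in such cells only 0.547% of 3289 did. For Sst the corresponding shares were 37.3% of 679 cells on 5 plates and 0 of 3589 cells on 32 plates, which allows up to 0.0836%. The share of other cells with a Gip or Sst UMI was thus higher on plates whose enteroendocrine-like cells held more of it. On the 29 plates with no Gip in the class, 0.0608% of the other cells still held 10 or more Gip UMIs. The source of these UMIs was not tested.

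Sct was also seen in other cells on plates without it in the class. These plates held only 2 enteroendocrine-like cells in all, so the class was nearly absent from them. On the 16 plates where no enteroendocrine-like cell held any Sct UMI, 17 of 81 goblet-like cells (21.0%, Wilson interval 13.5 to 31.1) and 3 of 13 tuft-like cells (23.1%, 8.18 to 50.3) still held at least 1, against 28 of 913 enterocyte-like cells (3.07%, 2.13 to 4.40) and 0 of 632 immune-like cells, which allows up to 0.475% of cells with a UMI and does not limit expression. The median depths on these plates were 2194, 2832, 3085 and 776 UMIs, so the enterocyte-like cells were the deepest of these classes and the immune-like cells far shallower than the goblet-like cells. By mouse, goblet-like cells held 117, 261, 99.8 and 157 Sct CPM and enterocyte-like cells 31.6, 28.8, 12.4 and 18.5, with no overlap. Immune-like cells, which should lack it, held 123, 9.59 and 4.11 in mice 2 to 4. Tuft-like cells held 224, 255, 123 and 182 from 19, 157, 6 and 4 cells. Even so, the most Sct UMIs seen in any goblet-like or tuft-like cell was 4, far under the level of enteroendocrine carriers.

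The second question was which hormones share a cell. Of the 250 cells, 58 carried none of the 8, 78 carried 1, 91 carried 2, 16 carried 3, 4 carried 4 and 3 carried 5. So 114 of 192 carriers (59.4%, Wilson interval 52.3 to 66.1) carried at least 2 hormone mRNAs. Cells with 2 hormones were somewhat deeper than cells with 1, at a median of 2129 against 1780 UMIs, and the 3 cells with 5 hormones had a median of 3276. Cck, Gcg, Nts and Pyy were in no case the only hormone of a cell, while Sct was alone in 46 of its 127 carriers, Gip in 21 of 74, Sst in 8 of 38 and Ghrl in 3 of 39.

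Most carriers of Ghrl also carried Sst, and most carriers of Sst also carried Ghrl. Of the 39 Ghrl carriers, 29 also carried Sst (74.4%, Wilson interval 58.9 to 85.4), and of the 38 Sst carriers, 29 also carried Ghrl (76.3%, 60.8 to 87.0). Without mouse 2 the share was 2 of 5 Ghrl carriers (40%). The 29 cells came from 12 plates and 3 mice, with 1, 27 and 1 in mice 1, 2 and 4. In all 29 the Sst UMIs outnumbered the Ghrl UMIs, with medians of 273 and 24 and ranges of 42 to 928 and 10 to 153. Across the 212 cells under 10 Sst UMIs, 10 carried Ghrl (4.72%), with a median of 83.5 UMIs and a range of 12 to 289, and 7 of these also carried Cck. None of the 29 double carriers carried Cck, and none of the 29 Cck carriers carried Sst, which allows a share of up to 10.3%. The 3 of the 10 with the most Ghrl, at 289, 253 and 133 UMIs, did not carry Cck.

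For this pair the background on the same plates was lower. The most Sst UMIs in any of the 1360 other cells on the 12 plates with Sst carriers was 10, and the fewest in a double carrier was 42. For Ghrl the most in any of 1847 other cells on its 16 carrier plates was 3, and a double carrier held at least 10.

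Gip and Sct formed the largest pair. Of 74 Gip carriers, 52 also carried Sct (70.3%, Wilson interval 59.1 to 79.5), and these were 40.9% of the 127 Sct carriers. Of the 176 cells that did not carry Gip, 75 carried Sct (42.6%), and Spearman's rho of the pair over the 250 cells was 0.17. Mice 1 to 3 had 3 of 3, 48 of 66 and 1 of 3 Gip carriers with Sct, and mouse 4 had 0 of 2. Gip was the higher of the pair in all 52 cells, with medians of 256 and 33.5 UMIs. Because Sct is graded around the cut, this share moved with it, to 93.5% when 1 UMI was enough for both genes, where 91.2% of all 250 cells held Sct, and 38.4% when 30 were required. Other cells on the carrier plates reached 36 Gip UMIs, with 5 cells at 10 or more, and 22 Sct UMIs, with 1 cell at 10 or more, while double carriers held at least 48 Gip and 10 Sct UMIs.

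Other hormones were rare in Gip cells. The 74 Gip carriers held Cck in 5 cells, Pyy in 2, Ghrl in 1 and Sst in 1, and none carried Nts or Gcg. None of the 15 Nts carriers carried Gip, which allows a share of up to 20%.

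Cck, Nts, Pyy, Gcg and Sct were carried together in several combinations, though no cell carried both Gcg and Nts. All 7 Gcg carriers also carried Cck (Wilson interval 64.6 to 100%), against 9.05% of the 243 cells without Gcg. They made up 24.1% of the 29 Cck carriers, and 4 of the 7 carried Ghrl. All 15 Nts carriers also carried Sct (79.6 to 100%), against 47.7% of the 235 cells without Nts, 8 of them Cck and 4 Pyy. Of the 10 Pyy carriers 9 also carried Sct and 6 Cck, and of the 29 Cck carriers 25 carried Sct (86.2%, 69.4 to 94.5), against 46.2% of the 221 cells without Cck. In the 7 cells with Gcg and Cck neither was steadily the higher, with medians of 79 and 114 UMIs and Gcg higher in 3. The 3 cells with 5 hormones were 2 with Cck, Ghrl, Nts, Pyy and Sct from mice 1 and 2, and 1 with Gcg, Cck, Ghrl, Pyy and Sct from mouse 2. All these shares are over cells and not over mice, and most of the cells are from mouse 2.

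**Figure D2:**
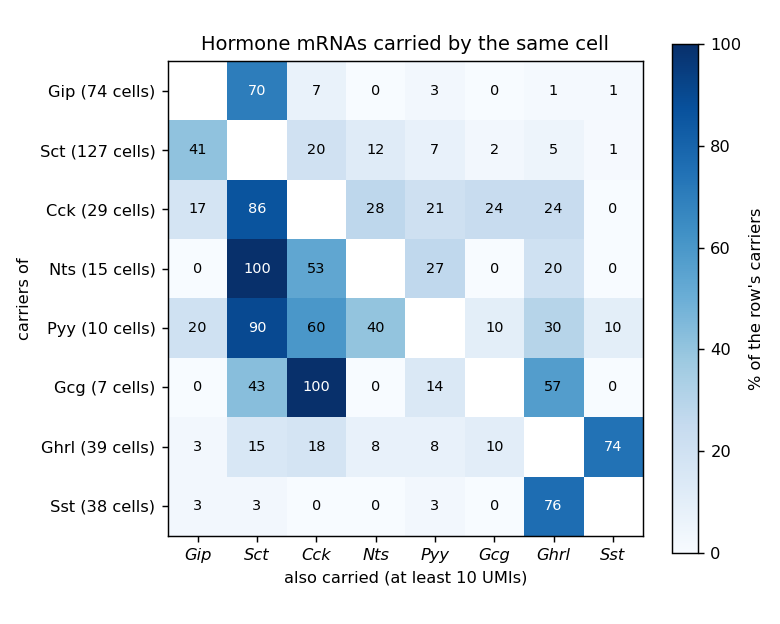
Share of the carriers of each hormone (rows, with the number of cells) that also carried another (columns), in %, at 10 UMIs for both, over the 250 enteroendocrine-like cells. Ghrl and Sst fill each other's rows at 74.4 and 76.3%, Gcg lies wholly within Cck, Nts wholly within Sct, and the Gip row is at most 6.76% outside Sct.

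**Figure D3:**
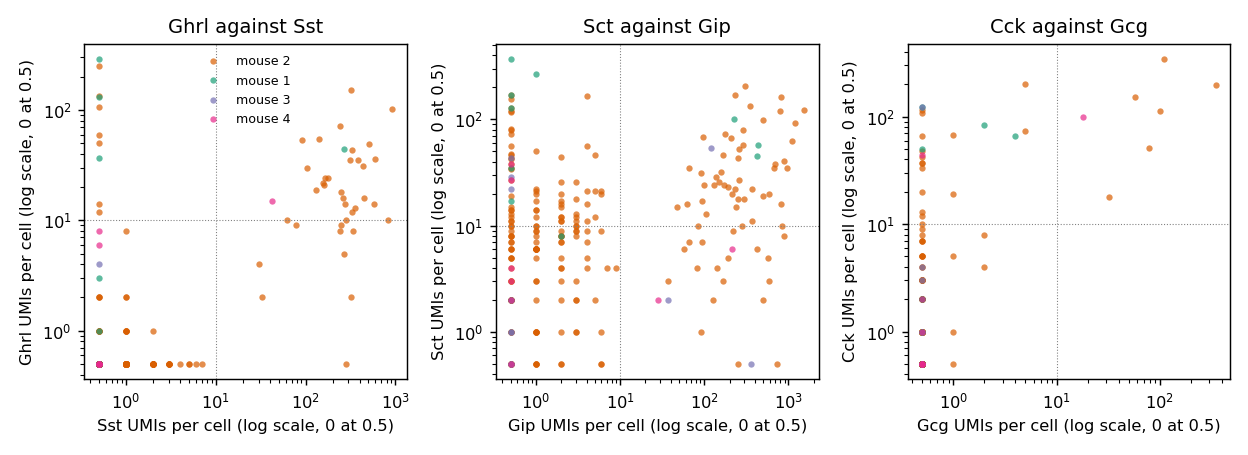
UMIs per enteroendocrine-like cell of Ghrl against Sst, Sct against Gip, and Cck against Gcg, on log axes with 0 drawn at 0.5 and dotted lines at 10 UMIs, coloured by mouse. Cells with high Sst carry moderate Ghrl and 5 of the 7 cells over 100 Ghrl UMIs hold under 10 of Sst, Sct lies on both sides of 10 UMIs in cells with high Gip, and all cells with high Gcg hold Cck.

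For each hormone the 3 most similar genes among 1937 seen in at least 10% of the 250 cells were taken, by Spearman's rho of the UMI share across cells. These are descriptions over cells that share plates and depth. Ghrl and Sst had the same 2 leading partners: Iapp (amylin, a peptide hormone) at rho 0.60 and 0.62, and Asic5 (named for the acid-sensing ion channel family) at 0.58 and 0.57. Iapp stood at 3082 CPM in Sst carriers and 6.86 in the other cells of the class. The third partner of each was the other, at 0.42.

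Gip was closest to Fabp5 (a fatty acid binding protein) at 0.58, Gm6166 at 0.54 and Sphkap (an anchoring protein for protein kinase A) at 0.46. Fabp5 stood at 2168 CPM in Gip carriers and 126 in the other cells. Gm6166 is a predicted gene whose counts may share reads with a near copy, so its place is uncertain.

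Cck was closest to the granule protein Scg2 at 0.57, the myosin light chain Myl7 at 0.51 and the retinol carrier Rbp4 at 0.48. Sct had Myl7 at 0.48, Scg2 at 0.43 and Cck at 0.38. Scg2 stood at 2266 CPM in Cck carriers against 303 in the other cells. Gcg was closest to Cck at 0.43, the sulfotransferase Sult1d1 at 0.38 and the long-chain fatty acid receptor Ffar1 at 0.37. Nts was closest to Ffar1 at 0.43, Sct at 0.31 and Arhgef38 at 0.29, and Pyy to Myl7 at 0.26, Cck at 0.26 and the peroxiredoxin Prdx3 at 0.24. The lower values belong to the hormones with the fewest carriers and are weak in such sparse counts.

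Other genes of the hormone pathway came from lists and are given here as counts of list genes seen in at least 10% of the 250 cells, beside 1937 (8.29%) of all 23379 genes. Of the genes present in the single-cell table these were 5 of 8 genes that cut or modify prohormones, 10 of 13 granule proteins, 10 of 21 endocrine transcription factors, 7 of 12 other enteroendocrine products, 4 of 12 nutrient sensors and 0 of 11 receptors for these hormones. The following genes were named after their values were seen. The carboxypeptidase Cpe was seen in 66.4% of the cells and the prohormone convertase Pcsk1 in 37.6%, while Pcsk2, the convertase of glucagon-making islet cells, had 0 UMIs. Chgb was seen in 90.4% of the cells. Ffar1 was seen in 10 of 15 Nts carriers (66.7%) and in 51.7% of Cck carriers, and in none of the 38 Sst carriers.

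The 58 cells with none of the 8 hormones were not empty of endocrine markers. They held more Chga (9329 CPM against 3278 in the 192 carriers), more Tph1, the enzyme that starts serotonin synthesis (2556 against 788), and more Tac1, which encodes substance P (1409 against 117). Neurog3, the factor that starts the endocrine fate, was seen in 12.1% of the 58 and in 0 of the 192, which allows a share of up to 1.56% of cells with a UMI. It had 22 UMIs in 7 cells, so this does not limit the share of cells that express it. These genes were chosen after their values were seen, and the 58 cells had a median of 1537 UMIs against 1780 to 3276 for cells with 1 or more hormones.

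The hormones carried differed between sort gates, which were compared mainly among plates labelled mouse 2, without a test. The CD24 and Epcam plates were labelled 3 months, while 3 of the 5 plates with no gate named were labelled 4 months, so gate, age and collection cannot be told apart there and the label mouse 2 may cover more than 1 animal. The 5 CD24 plates gave 188 enteroendocrine-like cells of 1080 (17.4%), and 5 plates with no gate named gave 21 of 140 (15.0%). Gip was carried by 62 of the 188 cells but 0 of the 21, which allows a share of up to 14.3%, and these were 8 cells of the 3-month and 13 of the 4-month plates. Nts was carried by 1 of 188 and 7 of 21, Cck by 10 and 9, Pyy by 2 and 4, and Sct by 91 and 15. The 6 Epcam plates gave only 10 cells, with 4 Gip, 6 Sct and 3 Cck carriers. Among the 5 CD24 plates, Gip carriers made up 27.0 to 46.2% of the cells and Sst carriers 3.85 to 24.3%. All plates of mouse 1 were labelled 3 months. There Gip was carried by 3 of 5 cells on EpcamLow_Cd24high plates and 0 of 6 on plates with no gate named, and Nts by 1 of 5 and 5 of 6.

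The third question was where along the crypt and villus the hormone mRNAs lay, and it was put to the clumps. Each clump was placed in the crypt, mid-villus or villus tip by enterocyte landmark genes, which include none of the 8, and UMIs were summed per mouse. Mice 1 to 5 gave 436, 221, 418, 2060 and 139 crypt clumps with 2530718, 792411, 2896599, 18876318 and 348722 UMIs, and 530, 693, 1002, 186 and 198 villus clumps with 1280510, 1297247, 3512300, 648540 and 272827 UMIs. A sum over clumps cannot tell fewer cells of a type from less RNA per cell.

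Few clumps carried the hormones. In the crypt 0.688, 1.36, 0.478, 1.12 and 0% of the clumps of mice 1 to 5 held at least 10 UMIs of any of the 8 (0.728% ± 0.534), and in the villus 0.377, 0, 0.0998, 0 and 1.01% (0.297% ± 0.427), so the states overlapped. Crypt clumps were deeper in every mouse, with medians of 1340 to 6408 UMIs against 1046 to 2080 in the villus. After thinning to 500 UMIs, the share with at least 1 hormone UMI was 2.07% ± 0.656 in the crypt and 2.49% ± 0.499 in the villus. At this lower cut Sct alone stood at 2.04% ± 0.643 in the villus and 0.763% ± 0.294 in the crypt. Means for Gcg, Gip, Cck and Ghrl were higher in the crypt (0.56, 0.621, 0.59 and 0.414%) than in the villus (0.05, 0.307, 0.131 and 0.0735%). Their crypt SDs were 0.544, 0.637, 0.43 and 0.41. Means for Nts, Pyy and Sst were higher in the villus. Without thinning, 36 clumps held 10 or more UMIs of a hormone, with 31 of them in the crypt. Of these 36, 32 were among the 242 clumps assigned to enteroendocrine cells by marker genes that include none of the 8. Apart from Sct, each level below therefore rests mostly on a handful of clumps. Those with 10 or more UMIs of a hormone held 66.2 to 89.7% of its UMIs, against 23.4% for Sct, and mouse 4 gave most of the crypt.

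Of the 8 genes, 3 (Gip, Cck and Sct) passed the filter on low counts, and 1 of these, Sct, was called, with higher levels in the villus. The background was 47.8% of 7978 genes called in either direction and 23.3% called higher in the villus (edgeR quasi-likelihood test, adjusted p under 0.05), so 1 of 3 is a share near the background.

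Sct held 20.2, 22.7, 15.5, 15.1 and 2.87 CPM in the crypt of mice 1 to 5 and 151, 28.5, 48.1, 27.8 and 176 in the villus. It was higher in the villus in 5 of 5 mice, and the states did not overlap. The means were 15.3 ± 7.64 and 86.4 ± 71.6 (SD, n = 5 mice), and the log2 difference was 2.77 with an SE of 0.59 and an edgeR adjusted p of 0.00149. The size was uneven over mice, since mice 1 and 5 stood far above the other 3 in the villus.

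Sct was also spread over many clumps. It was seen in 469 clumps, but only 7 held 10 or more of its UMIs, and 33.6% of its 866 UMIs lay in enteroendocrine clumps, against 36.3% for Sst and 79.0 to 95.5% for Gcg, Gip, Cck, Ghrl, Nts and Pyy. Enteroendocrine clumps held 3.61% of all UMIs. In clumps assigned to enterocytes only, Sct held 12.1, 3.11, 8.49, 3.66 and 0 CPM in the crypt and 47.1, 27.8, 38.9, 13.2 and 68.1 in the villus of mice 1 to 5, with no overlap. In mouse 5, 1 clump held 10 of the 12 villus UMIs. With the largest clump of each mouse and state left out, the villus values were 44.3, 25.4, 37.6, 9.02 and 11.5 against 10.9, 1.56, 7.54, 3.46 and 0 in the crypt. These ranges overlapped, while within each mouse the villus value was the higher. In goblet clumps it held 31.7, 36.7, 31.1, 22.7 and 0 in the crypt and 89.4, 33.4, 62.2, 60.3 and 37.9 in the villus, which overlapped. Of the 8 goblet markers tested, 5 were called higher in villus clumps by edgeR, beside 23.3% of all genes, and 6 had a positive difference. The 12 goblet markers together ranged over mice from 3111 to 5495 CPM in the crypt and from 5237 to 18299 in the villus. Their villus sum was highest in mouse 3, whereas villus Sct was highest in mouse 5, where the goblet sum was 6352. Their part in the Sct result was not tested.

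**Figure D4:**
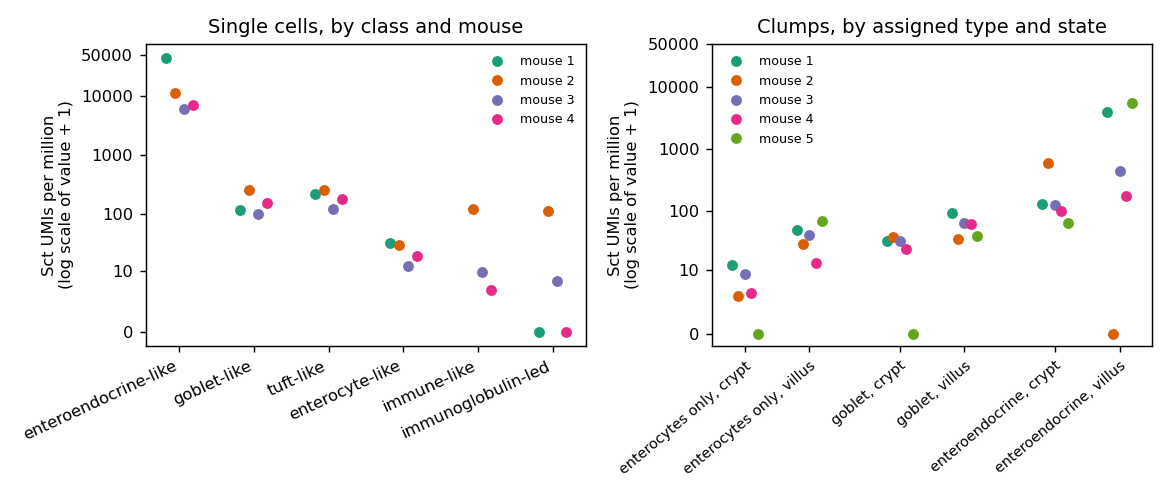
Sct CPM on a log scale of the value + 1, left by single-cell class (classes with at least 4 cells in a mouse) and right by assigned clump type and state, 1 point per mouse. Goblet-like and tuft-like cells sit between enteroendocrine-like and enterocyte-like cells in every mouse, and enterocyte-only villus clumps lie at 13.2 to 68.1 against 0 to 12.1 in the crypt.

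Gip did not pass. It held 0.790, 583, 12.8, 11.2 and 5.74 CPM in the crypt and 5.47, 13.9, 26.2, 3.08 and 33.0 in the villus. The crypt of mouse 2 stood alone, since a single clump held 432 of the 842 Gip UMIs (51.3%). The log2 difference was -2.57 with an SE of 1.32 and an edgeR adjusted p of 0.122, and without mouse 2 it turned to 1.31 (adjusted p 0.198).

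Cck held 10.7, 69.4, 0.345, 40.2 and 20.1 in the crypt and 33.6, 0, 0, 3.08 and 3.67 in the villus, higher in the crypt in 4 of 5 mice. The log2 difference was -1.47 with an SE of 1.14 and an edgeR adjusted p of 0.306, so the difference was within the spread between mice, and it was -0.52 without mouse 2.

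The other 5 genes fell below the filter. Gcg held 32.0, 83.3, 0, 35.2 and 22.9 CPM in the crypt and 2.34, 0, 0.285, 4.63 and 0 in the villus. Of its 827 UMIs, 820 were in crypt clumps and 7 in villus clumps, and all 12 clumps with 10 or more Gcg UMIs were in the crypt. Ghrl held 0, 66.9, 24.2, 12.4 and 11.5 in the crypt and 0.781, 0.771, 1.71, 3.08 and 0 in the villus, with 361 and 10 UMIs and 8 clumps of 10 or more, all in the crypt. Both were lower in the villus in 4 of 5 mice.

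With no filter on low counts, Gcg (log2 difference -4.68, SE 0.97, edgeR adjusted p 0.00116) and Ghrl (-3.68, SE 0.88, adjusted p 0.00391) were called beside Sct, against a background of 17.7% of 24573 genes. Their fitted values rest on villus sums of 0 to 6 UMIs per mouse, depend on the prior count of the model and are no bounds. Gcg, Ghrl and Sst are in the study's list of crypt landmarks for enteroendocrine cells, which was chosen on these clumps, so their direction is not independent evidence.

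Pyy held 7.51, 11.4, 0, 2.70 and 0 in the crypt and 100, 0, 0, 0 and 47.6 in the villus, and Nts 0, 0, 0, 2.38 and 0 in the crypt and 16.4, 0, 0, 0 and 18.3 in the villus. In the villus each was seen in mice 1 and 5 alone. Pyy had 3 villus clumps with 10 or more UMIs, and Nts had 1, in mouse 1, with its level in mouse 5 resting on 5 UMIs of 1 clump. Sst held 7.90, 0, 0, 3.07 and 0 in the crypt and 0, 0, 0, 3.08 and 0 in the villus, 80 UMIs in all. Neither Pyy (2.98, SE 1.11, adjusted p 0.0657), Nts (2.60, SE 1.20, adjusted p 0.151) nor Sst (-2.73, SE 1.39, adjusted p 0.205) was called by edgeR with no filter.

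**Figure D5:**
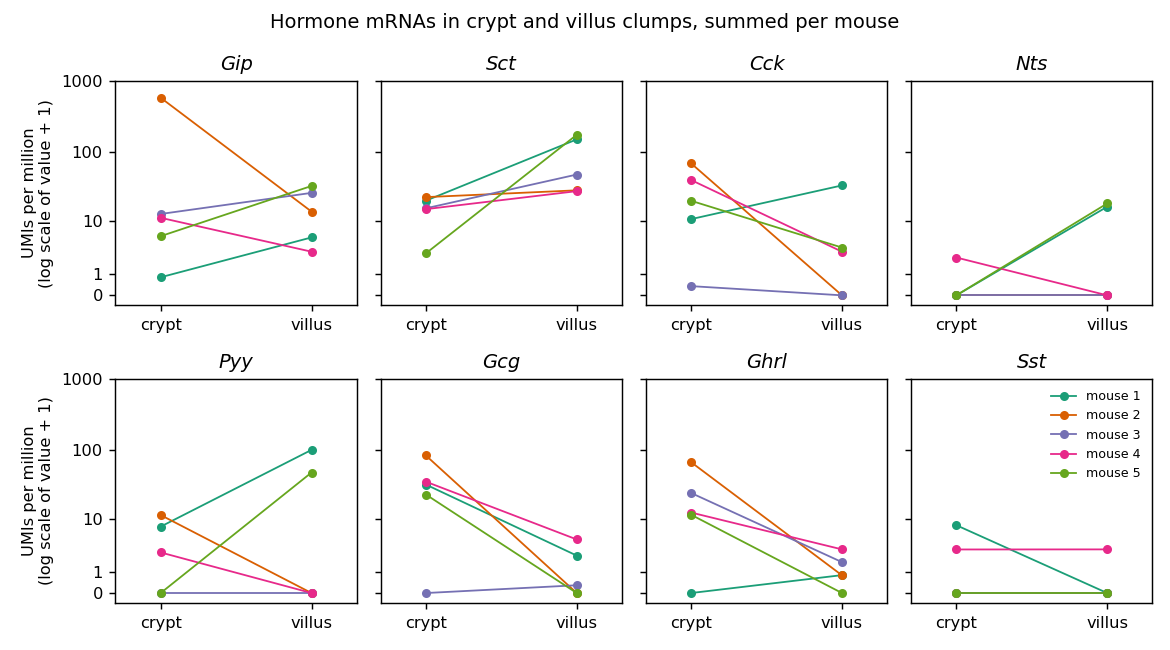
CPM of the 8 hormone mRNAs in crypt and villus clumps, summed per mouse and joined within a mouse, on a log scale of the value + 1. Sct is higher in the villus in 5 of 5 mice, Gcg and Ghrl are lower in 4 of 5, and Gip, Nts and Pyy go either way.

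Gcg and Cck met in clumps, whereas Gip with Sct and Ghrl with Sst did not at this cut. All 12 clumps with 10 or more Gcg UMIs also held 10 or more of Cck, and these were 12 of the 17 Cck clumps. Of the 8 Ghrl clumps, 5 also held Cck, 4 Gcg and none Sst, but only 2 clumps held 10 or more Sst UMIs. None of the 10 Gip clumps held 10 or more of any other hormone, Sct included. Of the 36 clumps with a hormone, 20 held 1, 7 held 2, 7 held 3 and 2 held 4. A clump can hold several endocrine cells, so this does not place both mRNAs in 1 cell.

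Enteroendocrine clumps alone were compared next, to separate hormone per endocrine clump from the number of such clumps. Mice 1 to 5 gave 30, 11, 14, 123 and 9 in the crypt and 14, 7, 21, 6 and 7 in the villus, with 15866 to 878494 and 5761 to 31289 UMIs per mouse. At these depths 229 genes passed the filter and none of the 8 hormones did, so 0 were tested, against a background of 63.8% of these genes called by edgeR.

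With no filter 6 of the 8 were called, against a background of 5.09% of 16006 genes whose median log2 difference was -1.39. Only 229 of these genes pass the filter, and 63.8% of those were called, so 6 of 8 beside 5.09% does not show an excess. All 8 hormones lay below the filter, so these calls are no support for a difference. Gcg held 81, 66, 0, 502 and 8 UMIs in the crypt and 2, 0, 0, 1 and 0 in the villus of mice 1 to 5. Ghrl held 0, 52, 68, 181 and 4 in the crypt and 0, 0, 1, 0 and 0 in the villus. Gip held 1, 452, 37, 139 and 0 in the crypt and 0, 0, 82, 0 and 9 in the villus. The fit called these 3 lower in the villus, with log2 differences of -5.14 (SE 0.91, adjusted p 1.99e-05), -6.21 (SE 1.05, adjusted p 9.98e-06) and -2.45 (SE 0.77, adjusted p 0.0312). For Gip 1 crypt clump of mouse 2 held 432 of the 629 crypt UMIs, and by CPM the villus was higher in 2 of 5 mice, at 3537 against 570 in mouse 3 and 1525 against 0 in mouse 5.

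Sct held 15, 12, 8, 85 and 1 UMIs in the crypt and 126, 0, 10, 1 and 33 in the villus, Pyy 17, 9, 0, 46 and 0 against 125, 0, 0, 0 and 13, and Nts 0, 0, 0, 42 and 0 against 21, 0, 0, 0 and 0. The fit called them higher in the villus by 2.70 (SE 0.69, adjusted p 0.00398), 2.88 (SE 0.69, adjusted p 0.00168) and 2.19 (SE 0.71, adjusted p 0.0406). Cck (-1.48, SE 0.65, adjusted p 0.208) and Sst (-5.38, SE 1.92, adjusted p 0.0756) were not called. Sct was higher in the villus in 4 of 5 mice by CPM, Pyy in mice 1 and 5 and Nts in mouse 1 alone. These rest on single clumps: 1 clump held 91 of the 126 villus Sct UMIs of mouse 1 and another all 33 of mouse 5. Without the largest clump of each mouse and state Sct was higher in the villus in 1 mouse and in the crypt in 3. With clumps over 1000 UMIs only, 2 of 6 tested members were called, Sct (4.11, SE 0.93, adjusted p 0.00973) and Pyy (4.74, SE 1.42, adjusted p 0.0213), both by edgeR, against a background of 47.5% of 556 genes, so 2 of 6 is under the background. Other cell types moved with the state of these clumps. Enterocyte markers summed to 7140 to 65234 CPM in crypt and 46520 to 131030 in villus enteroendocrine clumps, and the 13 markers of stem and dividing cells to 441 to 1794 in the crypt and 0 to 128 in the villus, with no overlap. Immune markers ranged from 0 to 2099 and stromal markers from 0 to 1249 in the crypt, against 0 and 0 to 43.1 in the villus. Their part in these differences was not tested.

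Between mid-villus and villus tip, 2 of the 8 (Gcg and Sct) were tested and 0 called by edgeR, with 0 at an unadjusted p under 0.05 and 0 by DESeq2, against a background of 14.9% of 6928 genes. Sct held 159, 21.3, 45.5, 18.3 and 226 CPM in the mid-villus of mice 1 to 5 and 112, 44.3, 57.9, 79.4 and 51.4 in the tip, higher in the tip in mice 2, 3 and 4. Its log2 difference was -0.24 with an SE of 0.62 and an edgeR adjusted p of 0.842. Gcg had 4 UMIs in the mid-villus and 3 in the tip over all mice, too few to compare. All 141 villus Pyy UMIs were in the mid-villus, 128 of them in mouse 1 and 13 in mouse 5.

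Larger clumps hold more cells than pairs, and the crypt clumps of both sizes were compared. Of 3 members tested 0 were called by edgeR, where 0 of 6961 genes were called, 173 of them at an unadjusted p under 0.05, and DESeq2 called 0. The background was 0%. Gcg held 42.2, 35.9 and 25.6 CPM in larger clumps of mice 1, 4 and 5, and 0, 83.3, 0, 2.59 and 0 in pairs of mice 1 to 5. Cck held 14.1, 41.0 and 22.4 in larger clumps and 0, 69.4, 0.345, 0 and 0 in pairs. Both were higher in larger clumps in each of the 3 mice that gave both sizes, while the pairs of mouse 2 stood highest of all. The log2 differences were 0.85 (SE 1.06) for Gcg, 0.74 (SE 1.06) for Cck and 0.21 (SE 0.49) for Sct, each with an edgeR adjusted p of 0.999.

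With the mouse as a block, Gcg (5.12, SE 1.08, adjusted p 0.000946) and Cck (9.12, SE 2.08, adjusted p 0.00403) were called, against a background of 0.374% of 6961 genes. Pairs of mice 1, 4 and 5 held 1 Gcg and 0 Cck UMIs in all, so these fitted sizes are no bounds. With no filter Gip alone was called, lower in larger clumps (-4.07, SE 0.68, adjusted p 2.52e-05), against a background of 0.167% of 23351 genes, and the pairs of mouse 2 held 462 Gip UMIs. Without mouse 2 Gcg was called in the fit with no block (6.98, SE 0.95, adjusted p 0.0153), the 1 gene called of 6153 (0.0163%). The pairs left then held 1 Gcg UMI, so Gcg passed the low-count filter only through the larger clumps and this call is no support for a difference.

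Of the pathway lists, few genes were abundant enough to test in clumps, and their counts stand beside the same backgrounds as above (47.8% called villus against crypt, 23.3% higher in the villus, and 14.9% called between tip and mid-villus). Villus against crypt, 1 of 2 tested prohormone processing genes was higher (Furin, a general protein convertase, 1.39, SE 0.35, adjusted p 0.00492) and 0 lower. Of 3 tested granule proteins, Vamp2 was higher (0.82, SE 0.30, adjusted p 0.0358) and Chgb lower (-1.84, SE 0.66, adjusted p 0.0319). Of other enteroendocrine products only Ddc, the decarboxylase of serotonin synthesis, was tested, and it was higher in the villus (0.96, SE 0.22, adjusted p 0.00251) and lower in the tip than in the mid-villus (-1.48, SE 0.35, adjusted p 0.00704), all by edgeR. Furin, Vamp2 and Ddc are also made by other epithelial cells. No transcription factor or nutrient sensor of the lists was tested there, and 1 of 18 receptors was tested and not called. The median log2 differences were 0.31 for prohormone processing and 0.56 for granule proteins, beside 0.07 over all genes.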

How the data were processed

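The authors deposited 2 tables of raw UMI counts per gene and well, 1 of clumps (17162 wells on 45 plates, 38454111 UMIs) and 1 of single cells (16850 wells on 44 plates, 39137313 UMIs). According to the submitters' processing notes, bcl2fastq 2.15.0.4 and the build GRCm38 were used, and the methods name STAR and zUMIs for mapping and counting. Background from empty wells was not subtracted here. The 8 genes and all lists were chosen with earlier results of these data known.

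A clump needed 200 genes, over 500 UMIs and no more than 30% mitochondrial UMIs, and the 2% lowest in landmark share were dropped. A cell needed a total of 200 to 7000 UMIs, from 150 to 1500 detected genes, and a mitochondrial share of no more than 40%. Cells were clustered in Scanpy 1.11.5 (Python 3.11.15) with the 8 genes left out, and clusters were named from marker lists. Clumps of 1 mouse and state were summed and fitted across all genes in edgeR 4.0.16 (R 4.3.3, TMM, quasi-likelihood, adjusted p threshold 0.05), with DESeq2 1.42.0 as an alternative. Clumps of mouse 6, sorted above 2n, entered 1 alternative only. States came from the same 5 mice, and deviations of a mouse's states from the group means correlated at 0.309 to 0.562 (villus against crypt), 0.232 to 0.415 (tip against mid-villus), -0.0985 to 0.272 (enteroendocrine clumps) and 0.121 to 0.335 (larger clumps against pairs). On simulated counts of 8043 genes for villus against crypt, 81% of genes changed by a log2 value of 2 and 95% of those changed by 3 were recovered, with 4.35% of calls false. The same shares were 79 and 92% for tip against mid-villus (6993 genes, 9.04% false), 61 and 81% for enteroendocrine clumps (251 genes, 11.8% false) and 67 and 93% for larger clumps against pairs (7014 genes, 9.09% false).

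Genes named are the 8 hormones, up to 4 genes per list that passed the test, by size, and the 3 genes most similar to each hormone across cells. Cpe, Pcsk1, Pcsk2, Chga, Tph1, Tac1 and Neurog3 fall outside this rule and were chosen after their values were seen. Alternatives left out each mouse, the low-count filter or the largest clumps, changed the carrier cut of 10 UMIs, and added the mouse as a block.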

Additional observations from a re-analysis of the deposited data

Results flagged for a closer look

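Of 24 sets of values over 4 or 5 mice, 6 had 1 mouse far from the others, and chance flags about 1 in 20 sets. Gip in the crypt of mouse 2 stood at 583 CPM, against 0.790 to 12.8 in the other 4 mice. Nts in the crypt stood at 2.38 in mouse 4 and 0 in the others. Cck in the villus stood at 33.6 in mouse 1 and 0 to 3.67 in the others. Sst in the villus stood at 3.08 in mouse 4, from 2 UMIs, and 0 in the others. Among enteroendocrine-like cells, 54.5% carried Nts in mouse 1, against 0 to 4.11% in the other 3 mice, and 27.3% carried Pyy in mouse 1, against 0 to 3.20%. These 2 shares are over all plates of a mouse, and gates differed. On plates with no gate named, mouse 1 had 5 Nts and 1 Pyy carriers among 6 cells, and mouse 2 had 7 and 4 among 21. On its CD24 plates mouse 2 had 1 and 2 among 188.

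The clumps of mouse 6, which entered an alternative fit only, also held hormone mRNAs above the 3 UMIs that a count of 0 allows. Its crypt clumps held 213 UMIs of Gcg, 230 of Cck, 92 of Ghrl, 32 of Pyy, 17 of Sct and 79 of Sst. Its villus clumps held 4 of Gcg, 4 of Ghrl and 23 of Sct.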

How the results depend on the processing

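The hormones are rare, so most levels rest on a few clumps or on mouse 2. Sct was called higher in the villus in all 16 alternatives (log2 difference 2.10 to 3.14). The number of hormones called villus against crypt was 1, and 3 with no filter on low counts, 2 with mouse 6 added and 1 to 2 when a mouse was left out. Without mouse 1 this added Ghrl (-3.88, adjusted p 0.00155), without mouse 3 Gcg (-4.35, adjusted p 0.000636) and with mouse 6 Cck (-3.37, adjusted p 0.0370), by edgeR, in fits that called 38.6, 37.3 and 50.6% of all genes tested. Ghrl and Gcg passed the low-count filter there only once the mouse with 0 of their UMIs in the crypt, and the 1 mouse higher in the villus, was left out, so these 2 calls are no support for a difference. Gip ran from -3.25 to 1.31 when a mouse was left out (1.31 without mouse 2), and was 0.62 without the largest clump of each hormone and 0.71 without these and mouse 4. Median differences over all genes moved from 0.07 to -0.04 with DESeq2 size factors.

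Between tip and mid-villus 0 were called in all 13 alternatives, and Sct stood at 0.29 with the mouse as a block, -0.53 to 0.43 when a mouse was left out (0.43 without mouse 5) and 0.10 without the largest clumps, while all genes called went from 1034 to 2124 with the block, 658 with no filter and 386 to 395 without mouse 1, 2 or 3. In enteroendocrine clumps 6 were called with no filter and 2 over 1000 UMIs, and 0 when a mouse was left out, and the median over all genes was -0.005, -0.43 with DESeq2 size factors and -1.39 with no filter. All genes called there were 146, and 815 with no filter. The alternative with at least 5 marker UMIs per clump could not be fitted. Larger clumps against pairs gave 2 with the mouse as a block, 1 with no filter and 0 to 1 when a mouse was left out, and Cck ran from -0.047 (without mouse 4) to 0.72. The block changed no other call.

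The share of cells with any hormone (75.5%) was 62.7% with cells taken by their sum of markers, where Sst was at 3.14% in place of 9.51%, and 71.5% with cells thinned to 1000 UMIs, where Gcg was at 0.853% in place of 3.81%. The share of carriers with 2 or more hormones (59.4%) was 89.5% at 1 UMI, 70.5% at 3, 47.0% at 30, 78.8% without the CD24 plates of mouse 2, and 57.5 to 65.2% when a mouse was left out. The share of clumps with a hormone (crypt 0.728%, villus 0.297%) was 9.08 and 9.33% at 1 UMI and 2.07 and 2.49% at 1 UMI after thinning to 500 UMIs, 0.367 and 0.0831% in pairs only, and 0.571 to 0.910% and 0.119 to 0.372% when a mouse was left out. The alternatives with mouse 6, the largest clumps, landmark UMIs scaled to all UMIs of the clump and the CD24 plates, all those for the shares of clumps, and those without a mouse for hormones together in 1 cell were chosen after seeing the data.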
